A study of Bos taurus with 3 samples.

Results

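The genes described here are 10 regulators of entry into the cell cycle, measured in epithelial cells of the bovine rumen. They are the CIP/KIP inhibitors CDKN1A, CDKN1B and CDKN1C, the INK4 inhibitor CDKN2B, the D cyclins CCND1, CCND2 and CCND3, the kinases CDK4 and CDK6, and the stress-induced arrest gene GADD45B. They were picked by name among 19533 measured genes, with earlier results of these data known. The rule used no measured threshold, and 9 of the 10 passed the filter on low counts. CDKN2B did not pass it, with 56 UMIs (unique molecular identifiers, 1 per captured transcript) in all cells. Their identifiers are ENSBTAG00000008353 (CDKN1A), ENSBTAG00000018254 (CDKN1B), ENSBTAG00000031184 (CDKN1C), ENSBTAG00000051567 (CDKN2B), ENSBTAG00000017514 (CCND1), ENSBTAG00000016649 (CCND2), ENSBTAG00000010106 (CCND3), ENSBTAG00000007160 (CDK4), ENSBTAG00000044023 (CDK6) and ENSBTAG00000025462 (GADD45B). The question put to these genes was whether cells with DLK2 and cells with GJA1 leave the cycle with different inhibitors.

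Tissue was taken from the ventral sac in 3 adult, lactating Holstein dairy cows, with 1 droplet library per cow and no treatment or control group. The tissue was stripped of muscle and taken apart with EDTA, trypsin, collagenases, dispase, hyaluronidase and DNase. The authors removed dead cells and doublets, filtered cells on genes, UMIs and mitochondrial share, and kept epithelial cells, which left 20728 cells. A cow is the replicate throughout, so that n = 3, and a level is the number of UMIs of a gene per 10000 UMIs of the same cells.

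In early cell cycle control, D cyclins bind CDK4 or CDK6, and the complex phosphorylates the retinoblastoma protein, which releases E2F factors and the genes of DNA synthesis. INK4 inhibitors bind the kinases alone, whereas CIP/KIP inhibitors bind assembled cyclin and kinase complexes. In stratified epithelia, dividing cells lie near the basement membrane and stop dividing as they move up. DLK2 encodes a membrane protein of the delta-like family, and GJA1 encodes the gap junction protein connexin 43.

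Cells were gated by their UMIs of DLK2 and GJA1. DLK2+ cells had at least 1 UMI of DLK2 and none of GJA1 (7396 cells), and GJA1+ cells had the reverse (1661 cells). Neither gene was found in 11233 cells, and both in 438. Within each gate, cells were cycling at 10 or more UMIs per 10000 of a list of 40 proliferation genes and non-cycling under 5, and the 836 cells in between were left out. This gave 6799 non-cycling and 424 cycling DLK2+ cells, and 1346 non-cycling and 245 cycling GJA1+ cells. Near these limits lay 408 non-cycling cells with 4 to under 5 and 188 cycling cells with 10 to under 12. The unthinned share of cycling cells was 2.81%, 1.98% and 12.6% in the DLK2+ gate of cows 1, 2 and 3 and 12.4%, 12.1% and 19.0% in the GJA1+ gate. A gate needs a UMI, so the cells with neither gene hold cells whose transcripts were missed.

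Depth was 38912809 to 104189434 UMIs per library over 3369 to 9958 cells, and the median cell had 10514 UMIs. GJA1+ cells were deeper than DLK2+ cells, with medians of 15760 and 9779 UMIs, and had a higher median mitochondrial share, 15.9% against 10.7%. Barcodes were shared by libraries in 35 cases, which involved 70 cells. Keratins stood at up to 69.4 UMIs per 10000 (KRT5, cow 3), whereas the 5 measured fibroblast markers together stayed at or under 0.00339 in the non-cycling gates and the smooth muscle markers at or under 0.00881. The immune markers summed to 0.141 to 0.383 in DLK2+ and 0.0837 to 0.201 in GJA1+ non-cycling cells, most of it CD14, and PTPRC was at most 0.00269 in any library. Endothelial markers summed to 0.0159 to 0.0453 in these 2 gates, most of it VWF. Fewer expressing cells and fewer transcripts per cell cannot be told apart in a summed level.

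CDKN1C, an inhibitor known for arrest of differentiating and stem cells, set the gates apart most among the 10 genes. In non-cycling DLK2+ cells it had 0.624, 0.492 and 0.628 UMIs per 10000 in cows 1, 2 and 3. In non-cycling GJA1+ cells it had 0.0679, 0.0381 and 0.0527. The lowest DLK2+ value was above the highest GJA1+ value, and in cells with neither gene the levels lay between, at 0.329, 0.260 and 0.392. The log2 fold change of DLK2+ over GJA1+ was 3.31 ± 0.15 (SE), a 9.91-fold difference, with an adjusted p of 5.1e-16 (edgeR quasi-likelihood test on sums per cow, Benjamini-Hochberg adjustment over 10632 genes). In this comparison 47.8% of all genes tested passed the threshold of an adjusted p under 0.05 and an absolute log2 fold change above 0.25, and 7 of the 9 genes tested did. Of all genes, 24.6% were higher and 23.3% lower in DLK2+ cells, and of the 9 tested here 6 were higher and 1 was lower.

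The difference was also present at equal depth. After each cell was thinned to 5000 UMIs, 22.1% ± 0.697 (SD, n = 3) of non-cycling DLK2+ cells and 3.21% ± 0.966 of GJA1+ cells held a CDKN1C UMI. The unthinned shares were 28.2% and 5.66%. Cycling cells of all gates, thinned alike, had 2.90%, so the share in GJA1+ cells was close to that in cells that divide. Free RNA in droplets can give such a low share, and its part was not tested. In thinned cells the mean level over cows was 0.396 with neither gene and 0.727, 0.934 and 1.07 with 1, 2 and 3 or more UMIs of DLK2. The last step was a rise in cow 2 only (0.957 to 1.40). Cows 1 (0.836 to 0.821) and 3 (1.01 to 1.00) stayed almost level. With 1 UMI of GJA1 the mean CDKN1C level was 0.152, on 32 CDKN1C UMIs. At 2 and at 3 or more GJA1 UMIs, 3 and 8 CDKN1C UMIs were counted. These steps are given as a description, without a test.

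CDKN1A, an inhibitor induced by many stress signals, was at similar levels in both gates when all non-cycling cells were pooled. DLK2+ cells had 0.872, 1.604 and 0.232 UMIs per 10000 and GJA1+ cells had 0.690, 1.38 and 0.468 in cows 1, 2 and 3. It was thus higher in DLK2+ cells of cows 1 and 2 and in GJA1+ cells of cow 3, and cows differed more than gates. The log2 fold change was -0.24 ± 0.18 (SE), with an adjusted p of 0.30 (edgeR, Benjamini-Hochberg adjustment). Its sign turned in 2 settings. It was 0.14 without cow 3 and 0.20 when cells were thinned to 5000 UMIs and gated again, which left out shallower cells and changed the gates as well as the depth, with adjusted p of 0.46 and 0.35 (edgeR).

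Immediate-early genes, which cells switch on within minutes of a stimulus and during tissue dissociation, differed between the gates too. The 23 measured genes of the list, such as FOS, JUNB and EGR1, summed to 111, 124 and 34.3 UMIs per 10000 in non-cycling DLK2+ cells and to 50.1, 75.9 and 23.7 in GJA1+ cells. Of the 22 that were tested, 15 were higher in DLK2+ cells and 4 were lower (MCL1, NR4A1, HSPH1 and HSPA1A), beside 24.6% and 23.3% of all genes, with a median log2 fold change of 0.84 against 0.04 for all genes. Cow 3 had the lowest sums and cow 2 the highest in both gates.

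CDKN1A was higher in GJA1+ cells once cells of similar summed immediate-early level were compared. In cells at or under the median immediate-early level of their cow, CDKN1A had 0.149, 0.642 and 0.0275 UMIs per 10000 in DLK2+ and 0.557, 0.945 and 0.235 in GJA1+ non-cycling cells. GJA1+ was above DLK2+ in each cow, while the sum of immediate-early genes was nearly level, at 37.5, 65.8 and 11.6 against 38.3, 59.4 and 11.5. The log2 fold change of DLK2+ over GJA1+ was then -1.35 ± 0.21 (SE), with an adjusted p of 3.6e-06 (edgeR, Benjamini-Hochberg adjustment), where 40.8% of genes tested passed. This alternative left 2846 of 6799 DLK2+ and 992 of 1346 GJA1+ cells. The match was on the sum of the list, not on its single genes. Among all non-cycling cells FOS (log2 fold change 1.38) and JUNB (1.59) were higher in DLK2+ cells. DUSP1, the gene most like CDKN1A over clusters, was not called (-0.18). What the make-up of the sum did to the CDKN1A difference was not tested.

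**Figure D1:**
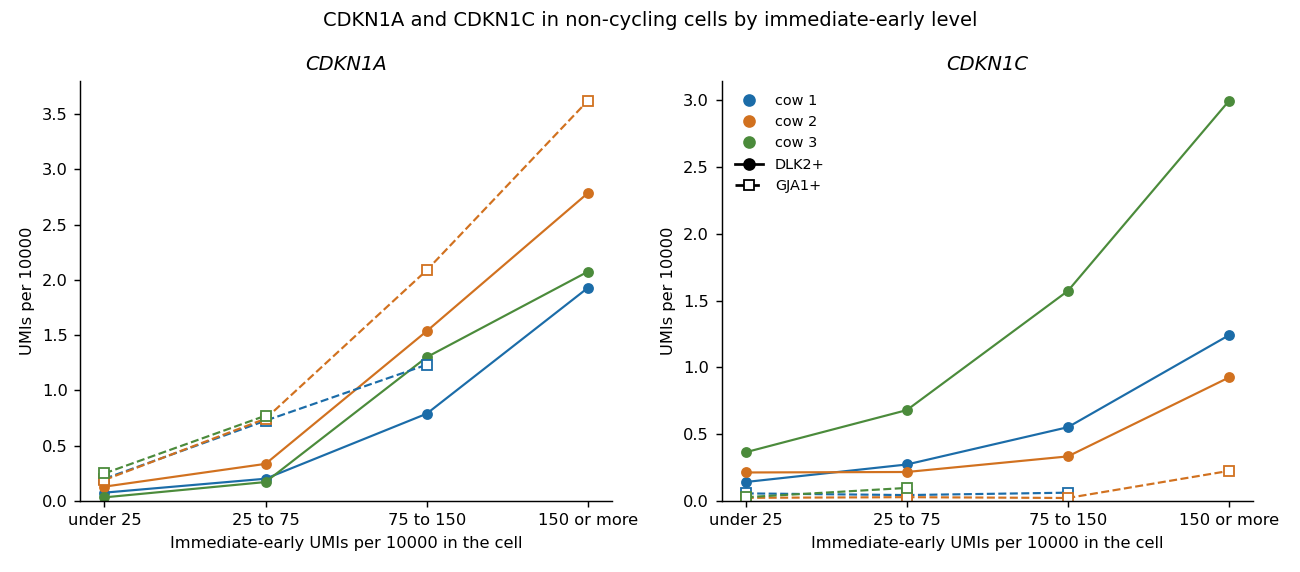
Levels of CDKN1A (left) and CDKN1C (right) in non-cycling cells, in UMIs per 10000, by the immediate-early UMIs per 10000 of the cell. Filled circles with solid lines are DLK2+ cells and open squares with dashed lines are GJA1+ cells, in 1 colour per cow, and points of under 20 cells are left out. In the band from 25 to 75, CDKN1A lies at 0.726 to 0.771 in GJA1+ and at 0.170 to 0.334 in DLK2+ cells, whereas CDKN1C lies lower in GJA1+ than in DLK2+ cells of the same cow in each band shown.

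The plot of CDKN1A and CDKN1C by immediate-early band shows both genes at matched sums of the list. In the band from 25 to under 75 UMIs per 10000, CDKN1A had 0.726, 0.743 and 0.771 in GJA1+ cells of cows 1, 2 and 3 and 0.200, 0.334 and 0.170 in DLK2+ cells. The cows, which stood far apart in the pooled values, were close together in GJA1+ cells within this band. CDKN1C had 0.272, 0.216 and 0.679 in DLK2+ and 0.0428, 0.0271 and 0.0963 in GJA1+ cells of the same band. A fit on this band alone, chosen after seeing the data, gave log2 fold changes of -1.67 ± 0.15 (SE) for CDKN1A and 2.72 ± 0.19 for CDKN1C, with adjusted p of 2.4e-12 and 7.0e-16 (edgeR, Benjamini-Hochberg adjustment, 39.2% of genes passing). The 2 inhibitors thus went in opposite directions between the gates at a matched sum of immediate-early genes.

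Both inhibitors also moved with the immediate-early level inside a gate. From under 25 to 150 or more, CDKN1A in DLK2+ cells went from 0.0737, 0.128 and 0.0311 to 1.93, 2.78 and 2.07 UMIs per 10000 in cows 1, 2 and 3. CDKN1C in the same cells went from 0.141, 0.212 and 0.364 to 1.24, 0.924 and 3.00. The last value of cow 3 rests on 32 cells. In GJA1+ cells CDKN1A had 0.199, 0.189 and 0.248 under 25, and only cow 2 had enough cells at 150 or more, with 3.62. CDKN1C in those cells of cow 2 was at 0.224, under the 0.924 of DLK2+ cells. Whether dissociation raised these genes was not tested.

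CDKN1B, an inhibitor held mostly by protein turnover, differed little between the gates. Its levels were 0.502, 0.376 and 0.367 in DLK2+ and 0.357, 0.227 and 0.310 in GJA1+ non-cycling cells, with each DLK2+ value above each GJA1+ value by a narrow margin. On the log2 scale DLK2+ exceeded GJA1+ by 0.34 ± 0.11 (SE), with an adjusted p of 0.012 (edgeR, Benjamini-Hochberg adjustment). Without cow 2 it was 0.20 with an adjusted p of 0.27 (edgeR). CDKN2B, which binds CDK4 and CDK6 and is a known target of TGF-beta signalling, had 18 UMIs in DLK2+ and 7 in GJA1+ non-cycling cells, so that a difference was not detectable at this depth.

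**Figure D2:**
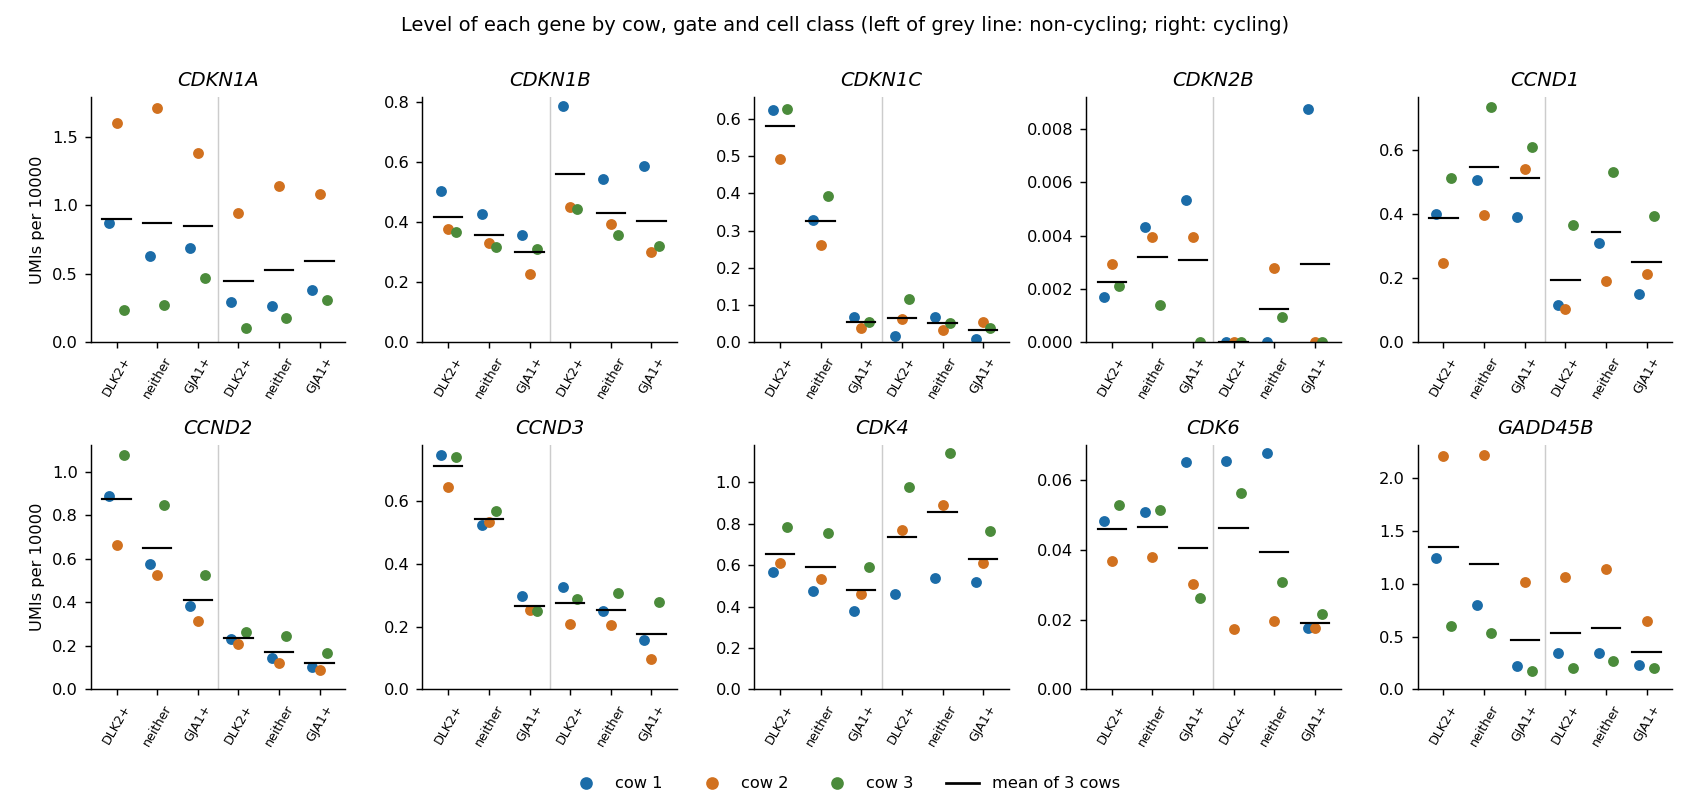
Level of each of the 10 genes in UMIs per 10000 (vertical axes, each with its own scale from 0), by gate, for non-cycling cells (left of the grey line) and cycling cells (right). Points are the 3 cows and black bars their means. CDKN1C in non-cycling DLK2+ cells (0.492 to 0.628) lies above every other column, and CDKN1A, CCND1 and GADD45B spread widely between cows.

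The make-up of the inhibitor pool summarises these levels. The chemistry tags the 3′ end of a transcript, so that UMIs do not grow with gene length, though capture may differ between genes. CDKN1C gave 31.2%, 19.9% and 51.1% of the UMIs of the 4 inhibitors in non-cycling DLK2+ cells of cows 1, 2 and 3, and 6.06%, 2.30% and 6.34% in GJA1+ cells. CDKN1A gave 43.6%, 64.8% and 18.9% in DLK2+ and 61.6%, 83.7% and 56.3% in GJA1+ cells. The CDKN1A share was larger in GJA1+ than in DLK2+ cells of every cow, while in cows 1 and 2 its level was lower there, as CDKN1C was a small part of the total. All 4 inhibitors together had 1.90 ± 0.629 (SD, n = 3) UMIs per 10000 in DLK2+ and 1.201 ± 0.417 in GJA1+ cells.

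Within DLK2+ cells CDKN1A was found more often in cells with CDKN1C than in cells without it. Of non-cycling DLK2+ cells thinned to 5000 UMIs, 42.0%, 50.1% and 17.4% of those with CDKN1C in cows 1, 2 and 3 also held CDKN1A. Among cells without CDKN1C the shares were 29.1%, 39.3% and 6.98%, lower in each cow. This was not particular to CDKN1A, since CCND2, CCND3 and GADD45B were also found more often with CDKN1C in each cow. CDKN1B and CCND1 were found more often with it in cows 2 and 3 and not in cow 1. CDKN1A and CDKN1C both moved with the immediate-early level, which these shares do not hold fixed. In GJA1+ cells only 15, 9 and 8 thinned cells had CDKN1C, too few for such shares.

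CCND2 and CCND3, D cyclins that many tissues express beside CCND1, were higher in DLK2+ cells. CCND2 had 0.890, 0.663 and 1.08 UMIs per 10000 in DLK2+ and 0.383, 0.316 and 0.527 in GJA1+ non-cycling cells. CCND3 had 0.748, 0.644 and 0.740 against 0.297, 0.252 and 0.250. Neither gene had ranges that met. The log2 fold changes were 0.96 ± 0.09 (SE) for CCND2 and 1.26 ± 0.11 for CCND3, with adjusted p of 3.9e-10 and 3.4e-10 (edgeR, Benjamini-Hochberg adjustment). Among cells of low immediate-early level they were 0.75 and 1.23, and both were called.

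CCND1, the D cyclin that growth factors induce, was the member called lower in DLK2+ cells. The direction was not shared by most GJA1-rich clusters, as given below. It had 0.399, 0.246 and 0.512 in DLK2+ and 0.389, 0.540 and 0.609 in GJA1+ non-cycling cells of cows 1, 2 and 3. Cow 1 had almost equal levels, and the gap was widest in cow 2. The log2 fold change was -0.62 ± 0.14 (SE), with an adjusted p of 0.00063 (edgeR, Benjamini-Hochberg adjustment). Without cow 2 it was -0.30 with an adjusted p of 0.079, and within the band from 25 to 75 it was -0.29 with an adjusted p of 0.079 (edgeR). CCND1 gave 19.1% ± 3.11 (SD, n = 3) of D cyclin UMIs in DLK2+ and 43.0% ± 6.22 in GJA1+ cells, as the other D cyclins were fewer there. All 3 together had 1.97 ± 0.392 and 1.19 ± 0.173 UMIs per 10000.

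**Figure D3:**
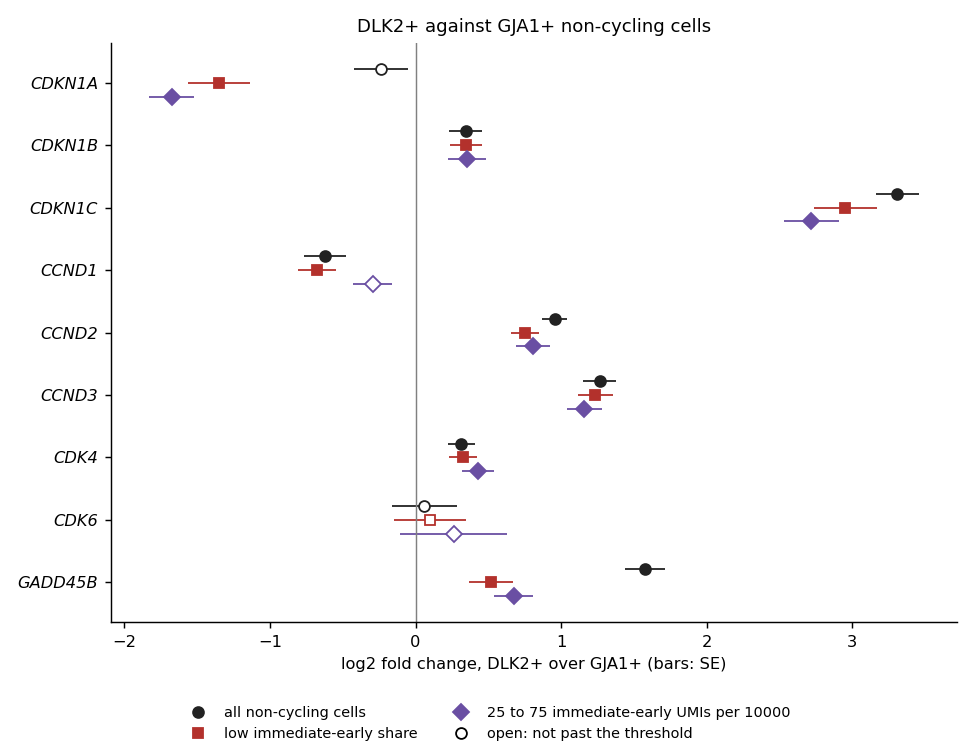
Log2 fold change of DLK2+ over GJA1+ non-cycling cells for the 9 genes tested, in all cells (black circles), in cells of low immediate-early level (red squares) and in cells with 25 to 75 immediate-early UMIs per 10000 (purple diamonds). Bars are SE and open marks did not pass the threshold. CDKN1A moves from -0.24 to -1.35 and -1.67, and GADD45B from 1.58 to 0.52 and 0.67, whereas CDKN1C stays at 2.72 or more.

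CDK4 was the main kinase, with 93.4% ± 1.08 (SD, n = 3) of the CDK4 and CDK6 UMIs in DLK2+ and 91.6% ± 5.55 in GJA1+ non-cycling cells. CDK4 had 0.569, 0.611 and 0.784 in DLK2+ and 0.379, 0.462 and 0.594 in GJA1+ cells. It was higher in DLK2+ cells of each cow, by less than the cows differed. The gates differed by 0.31 ± 0.09 (SE) on the log2 scale, with an adjusted p of 0.0055 (edgeR, Benjamini-Hochberg adjustment). The call was lost when cells were thinned to 5000 UMIs and gated again (0.27, adjusted p of 0.088, edgeR) and without cow 2 (0.31, adjusted p of 0.053, edgeR). CDK6, with 309 and 89 UMIs in the gates, had a log2 fold change of 0.06 ± 0.22 (SE) and an adjusted p of 0.85 (edgeR).

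GADD45B, a stress-induced gene, was higher in DLK2+ cells and followed the immediate-early genes. It had 1.24, 2.20 and 0.600 UMIs per 10000 in DLK2+ and 0.224, 1.01 and 0.178 in GJA1+ non-cycling cells, higher in DLK2+ cells within each cow. DLK2+ exceeded GJA1+ by 1.58 ± 0.14 (SE) on the log2 scale, with an adjusted p of 2.6e-10 (edgeR, Benjamini-Hochberg adjustment). It dropped to 0.52 ± 0.15 (SE) in cells of low immediate-early level, with an adjusted p of 0.0061 (edgeR). Under 25 immediate-early UMIs per 10000 the gates overlapped, at 0.0536, 0.172 and 0.0721 in DLK2+ and 0.0498, 0.167 and 0.0849 in GJA1+ cells.

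Each gate was then set against the non-cycling cells with neither gene. Both comparisons share the sums of those cells, and each shares a gate with the comparison above. DLK2+ cells were above them in CDKN1C (log2 fold change 0.78), CCND2 (0.37) and CCND3 (0.33) and below them in CCND1 (-0.57), so that 4 of 9 genes were called, beside 5.08% of all genes (2.07% higher, 3.01% lower). That background rests on the cows too, since the 540 genes called became 193, 94 and 494 without cow 1, 2 and 3. Of the calls among the members CDKN1C was kept without any 1 cow, whereas CCND3 was lost without cow 1, 2 or 3 (0.29, 0.39 and 0.31), CCND2 without cow 1 (0.31) and CCND1 without cow 2 (-0.48). Over all alternatives CDKN1C ran from 0.74 to 0.97, but its call was not kept in every one of them. GJA1+ cells were below the cells with neither gene in CDKN1C (-2.53), GADD45B (-1.36), CCND3 (-0.94) and CCND2 (-0.58). That was again 4 of 9, beside 38.5% of all genes (19.7% higher, 18.8% lower). Over the alternatives GADD45B ran from -1.59 to -0.58 and CCND2 from -0.66 to -0.30. At low immediate-early level GADD45B had 0.131, 0.742 and 0.0809 UMIs per 10000 in GJA1+ cells. With neither gene it had 0.251, 1.21 and 0.0651 there, so that cow 3 went the other way. CCND1 had 0.505, 0.396 and 0.732 UMIs per 10000 with neither gene. Its level in GJA1+ cells was above that in cow 2 and below it in cows 1 and 3, and the log2 fold change was 0.05 with an adjusted p of 0.81 (edgeR), or -0.18 without cow 2. CDKN1A in GJA1+ cells was at 0.26 with an adjusted p of 0.28 among all cells, at 0.58 with an adjusted p of 0.029 without cow 2, and at 0.92 with an adjusted p of 0.00053 among those of low immediate-early level (edgeR, Benjamini-Hochberg adjustment).

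Non-cycling cells were then set against cycling cells of the same gate. The non-cycling class can also hold dividing cells with few transcripts of the proliferation list. The split does not tell these from cells that left the cycle, so a rise alone is not exit. In these comparisons all 40 proliferation genes were lower by construction, and the non-cycling sums are those used above. In DLK2+ cells 6 of 9 genes rose, beside 22.2% of all genes called (11.3% higher, 11.0% lower). In GJA1+ cells 4 of 9 rose, beside 19.1% (11.7% higher, 7.44% lower). The genes that rose in both gates were CDKN1A, CCND1, CCND2 and CCND3, and CDKN1C and GADD45B passed in DLK2+ cells.

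CDKN1C was at 0.0164, 0.0605 and 0.115 UMIs per 10000 in cycling DLK2+ cells of cows 1, 2 and 3, against the 0.492 to 0.628 of non-cycling ones. Cycling cells were thus low in every cow, on 57 UMIs in all. The log2 fold change was 2.88 ± 0.20 (SE), with an adjusted p of 2.9e-12 (edgeR, Benjamini-Hochberg adjustment). In cycling GJA1+ cells it was at 0.00876, 0.0529 and 0.0381, on 14 UMIs, and the log2 fold change was 0.95 ± 0.42 (SE), with an adjusted p of 0.12. The difference between the 2 changes was 1.93 ± 0.57 (SE), with an adjusted p of 0.081 by edgeR and of 0.0058 by DESeq2, so that the gates were not shown to differ at the threshold of the main test. It was 1.33 without cow 2, with an adjusted p of 0.58 (edgeR). Of all genes, 1.98% passed in this test of the difference (0.179% higher, 1.81% lower).

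CDKN1A rose in both gates. In cycling cells it had 0.295, 0.942 and 0.0990 UMIs per 10000 with DLK2 and 0.377, 1.09 and 0.310 with GJA1. Non-cycling cells were above cycling cells in each cow of each gate. The log2 fold changes were 1.24 ± 0.26 (SE) in DLK2+ and 0.89 ± 0.25 in GJA1+ cells, with adjusted p of 0.00068 and 0.011 (edgeR, Benjamini-Hochberg adjustment). The difference between them was 0.35 ± 0.37 (SE), with an adjusted p of 0.77. Immediate-early genes were also lower in cycling cells, at 46.3, 85.7 and 23.6 per 10000 with DLK2 and 36.2, 60.6 and 23.2 with GJA1. Among cells of low immediate-early level the change of CDKN1A was 0.13 in DLK2+ and 0.91 in GJA1+ cells, with adjusted p of 0.87 and 0.034 (edgeR), and the difference of the changes was -0.78 with an adjusted p of 0.66. Without cow 1 the change in GJA1+ cells was 0.76, with an adjusted p of 0.12 (edgeR).

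The change of CDKN1B from cycling to non-cycling cells did not pass the test in either gate. Its levels were 0.787, 0.449 and 0.443 UMIs per 10000 in cycling DLK2+ and 0.587, 0.300 and 0.321 in cycling GJA1+ cells, above the non-cycling values in each cow. The log2 fold changes were -0.22 ± 0.14 (SE) and -0.15 ± 0.16, with adjusted p of 0.28 and 0.61 (edgeR, Benjamini-Hochberg adjustment).

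**Figure D4:**
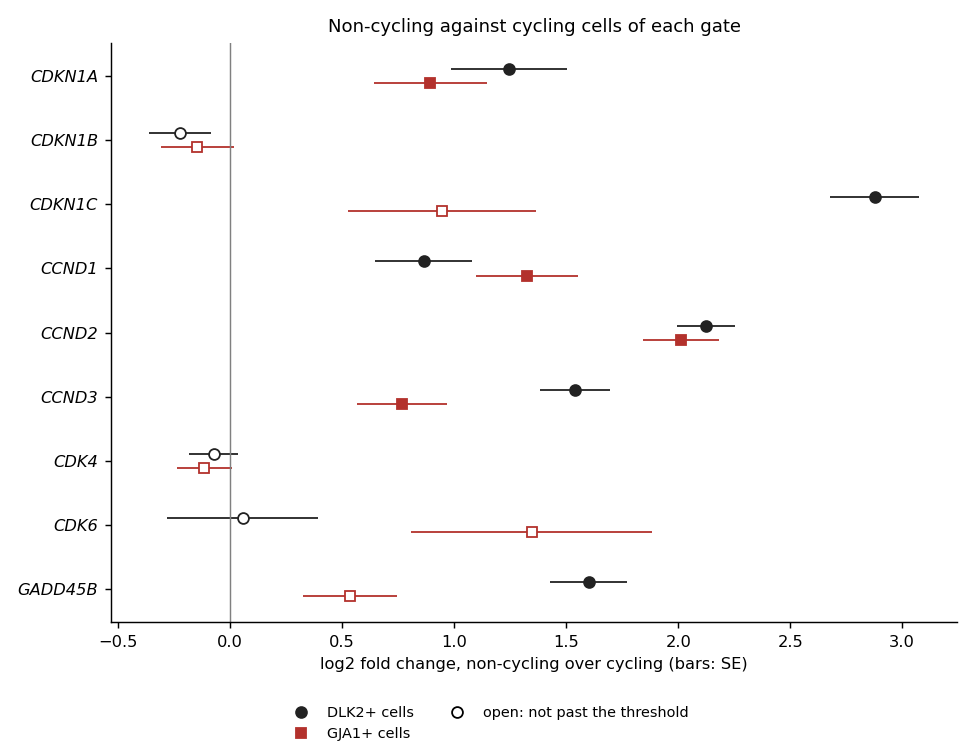
Log2 fold change of non-cycling over cycling cells in DLK2+ (black circles) and GJA1+ cells (red squares) for the 9 genes tested. Bars are SE and open marks did not pass the threshold. CDKN1C (2.88 against 0.95) and GADD45B (3.03-fold against 1.45-fold) lie farthest apart among the inhibitors and arrest genes, and CCND2 (2.12 and 2.01) is alike in both gates.

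D cyclins were higher in non-cycling than in cycling cells, CCND2 most. CCND1 peaked in cluster 6 (MCM3, RRM2, MCM5), at 0.813 ± 0.187 (SD, n = 3). Its rise is thus not read as a mark of exit from the cycle. CCND2 had 0.230, 0.207 and 0.266 UMIs per 10000 in cycling DLK2+ and 0.105, 0.0882 and 0.169 in cycling GJA1+ cells. The change was 2.12 ± 0.13 (SE) in DLK2+ and 2.01 ± 0.17 in GJA1+ cells on the log2 scale, with adjusted p of 1.5e-13 and 3.5e-10 (edgeR, Benjamini-Hochberg adjustment). CCND3 changed by 1.54 ± 0.16 (SE) and 0.77 ± 0.20, and CCND1 by 0.86 ± 0.21 and 1.32 ± 0.23, all past the threshold. CCND1 had 0.115, 0.104 and 0.365 UMIs per 10000 in cycling DLK2+ cells, highest in cow 3, and without that cow its change in DLK2+ cells was 1.54, with an adjusted p of 0.00877 (edgeR). CCND3 in GJA1+ cells lost the call without cow 1 (0.55) and without cow 2 (0.56). The differences between the gates were 0.77 for CCND3 and -0.46 for CCND1, with adjusted p of 0.17 and 0.62 (edgeR). CDK4 changed by -0.07 ± 0.11 (SE) and -0.12 ± 0.12, with adjusted p of 0.70 and 0.59 (edgeR). CDK6 changed by 0.06 ± 0.34 (SE) and 1.35 ± 0.54, with adjusted p of 0.94 and 0.083 (edgeR). It had 8 UMIs in cycling GJA1+ cells.

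GADD45B rose 3.03-fold in DLK2+ cells, with a log2 SE of 0.17 and an adjusted p of 3.2e-08 (edgeR, Benjamini-Hochberg adjustment). Among DLK2+ cells of low immediate-early level the log2 change was 0.70 ± 0.23 (SE), with an adjusted p of 0.032 (edgeR). In GJA1+ cells the change was 0.54 ± 0.21 (SE), with an adjusted p of 0.076. It was the member whose change passed the test of the difference, at 1.06 ± 0.28 (SE) with an adjusted p of 0.042 (edgeR). In cells of low immediate-early level the difference was 0.21, with an adjusted p of 0.91 (edgeR).

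Other regulators of the same step were taken from lists that hold none of the 10 genes. Among other CDK inhibitors, CDKN2C and CDKN2D of the INK4 family were lower in non-cycling cells of both gates, by -1.80 and -1.61 in DLK2+ and -2.07 and -1.65 in GJA1+ cells on the log2 scale. CDKN3, a phosphatase that acts on CDK2, fell as well, so that 3 of 3 tested were lower in both gates, where 11.0% (DLK2+) and 7.44% (GJA1+) of all genes were lower. Of 8 tested E cyclins and partners 7 fell in DLK2+ and 5 in GJA1+ cells, and of 12 tested pocket protein and E2F genes 7 and 5 fell, beside the same shares of all genes, E2F8 most, while TFDP2 rose in DLK2+ cells by 0.41. In DLK2+ cells CDKN3 (-6.55), E2F8 (-7.39) and CKS2 (-4.74) fell on the scale of the proliferation list (median -6.13). Cells were split on that list, so genes that run with it fall by construction, and these counts are a description.

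Between the gates, 5 of the 12 pocket protein and E2F genes differed, 2 higher and 3 lower in DLK2+ cells, beside the 47.8% of all genes called. TFDP2 (0.41) and E2F6 (0.56) were the higher ones. E2F1, which drives genes of DNA synthesis, was lower in non-cycling DLK2+ cells, with a log2 fold change of -2.65 and an adjusted p of 1.4e-05 (edgeR, Benjamini-Hochberg adjustment), as were RB1 (-0.38) and TFDP1 (-0.32). SKP2, which targets CDKN1B for breakdown, was also lower (-1.18, 1 of 8 E cyclins and partners). Of the 40 proliferation genes, 7 were lower and 1 (HMMR) higher in non-cycling DLK2+ cells, beside 23.3% lower and 24.6% higher of all genes. UHRF1 was at -1.39. Both gates were held under 5 UMIs per 10000 on the sum of this list, so these counts and the sums are a description. The sums were 0.753, 0.620 and 0.993 in DLK2+ and 0.779, 0.721 and 0.952 UMIs per 10000 in GJA1+ cells.

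Stress arrest genes split between the gates. GADD45A (log2 fold change 1.32), SESN3 (1.45), CCNG2 (1.16), SESN2 (0.75), SESN1 (0.62) and PLK2 (0.36) were higher in DLK2+ cells. BAX (-1.52), which promotes cell death, and MDM2 (-0.82), a ubiquitin ligase, were higher in GJA1+ cells. Antiproliferative BTG1 (1.30) and BTG2 (1.43) were higher in DLK2+ cells, where 3 of 5 genes of that list were higher and 1 was lower, beside 24.6% and 23.3% of all genes. BTG1 rose more from cycling to non-cycling cells in DLK2+ than in GJA1+ cells, by 0.70 with an adjusted p of 0.026 (edgeR, Benjamini-Hochberg adjustment).

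Of 18 tested factors known to act on the members, 9 were higher and 3 lower in DLK2+ cells, with a median log2 fold change of 0.36. SMAD3 was at 2.57, TGFBR2 at 1.16, SMAD7 at 1.09 and TGFB1 at 0.94, whereas TGFBR1 (0.26), SMAD4 (0.21) and SMAD2 (0.05) of the same list were not called. FOXO1, an activator of CDKN1B, was at 1.22 and MYC, a repressor of CDKN1A and CDKN2B, at 1.18. NOTCH1 (-2.20), KLF5 (-0.65) and MXD4 (-0.59) were lower in DLK2+ cells. MYC, KLF4 and KLF6 are also early response genes, and 47.8% of all genes passed in this comparison.

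Clusters made without the 10 genes showed where each peaked. Of 18 clusters, 5 were rich in DLK2 (at least 1 UMI per 10000), 3 rich in GJA1, 3 cycling and 1 both cycling and rich in GJA1. Clusters are called by number and leading genes, since cells clustered on their own expression give no test. CDKN1C had 1.58 ± 0.380 (SD, n = 3) UMIs per 10000 in cluster 0 (PDK4, RND1, THBS1), 1.30 ± 0.228 in cluster 2 (PDK4, CCDC3, SPRY1) and 0.882 ± 0.348 in cluster 5 (UACA, DLL1, CCDC3), all rich in DLK2. The other DLK2-rich clusters, 4 and 15, had 0.479 and 0.506, and all GJA1-rich ones had 0.0385 or less. Such low levels were not particular to GJA1-rich clusters. Of the clusters that were neither rich in a gating gene nor cycling, 10 (TM4SF1), 8 (IGFBP5) and 3 (IGFBP6) had 0.0182, 0.0315 and 0.0592. Cluster 6 (MCM3, RRM2, MCM5) had 0.0456. Its mean proliferation level of 7.04 UMIs per 10000 lay between the limits of 5 and 10, and it was 11.6 in cow 3. Clusters 9 and 1 had 0.144 and 0.208.

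Cluster 5 was high in CDKN1C and low in CDKN1A. There CDKN1C had 1.22, 0.530 and 0.891 UMIs per 10000 in cows 1, 2 and 3, and CDKN1A had 0.329, 0.314 and 0.0276. CDKN1C was above CDKN1A in each cow. The immediate-early list was at 69.0, 57.3 and 18.4 per 10000, with a mean of 48.2. In cluster 1 (EGR1, ZFP36, FOSB), at 109 for that list, the order was reversed, with 0.208 for CDKN1C and 1.23 for CDKN1A. Clusters 0 and 2, the highest in CDKN1C, were also the highest in that list, at 178 and 117. CDKN1B was high in cluster 5 as well, at 0.594, and highest in the mitotic cluster 14 (UBE2C, CCNB1), at 0.646 ± 0.209 (SD, n = 3). That order depended on the resolution, since with 13 clusters at a resolution of 1.0 CDKN1B was highest in a DLK2-rich cluster (0.592) and second in a cycling one (0.545).

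CDKN1A was highest in cluster 0, at 2.40 ± 1.14 (SD, n = 3) UMIs per 10000, where the immediate-early list also peaked at 178. Among GJA1-rich clusters it had 1.27 ± 0.502 in cluster 17 (KRT6B, GJB2), 1.02 ± 0.873 in cluster 7 (GSTA1, FABP4) and 0.570 ± 0.287 in cluster 13 (GJA1, URAD). Their immediate-early levels were 37.5, 56.7 and 44.0, and those of the DLK2-rich clusters ran from 48.2 in cluster 5 to the 178 of cluster 0, so the ranges overlapped. Cluster 17 stood apart, with 286 cells, a median of 3161 UMIs and a mitochondrial share of 0.344%.

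GJA1-rich clusters differed among themselves in CCND1. Cluster 7 had 0.564, 0.684 and 1.06 UMIs per 10000 in cows 1, 2 and 3 and cluster 13 had 0.130, 0.115 and 0.202, without overlap. Clusters 16 and 17 had means of 0.239 and 0.284. Means of the DLK2-rich clusters ran from 0.360 in cluster 5 to 0.546 in cluster 15. These lay below cluster 7 (0.770) and above the other GJA1-rich clusters. CCND1 peaked in cluster 6 (MCM3, RRM2, MCM5), at 0.813 ± 0.187 (SD, n = 3), where CDK4 also stood at 1.06 ± 0.333. CDK4 was highest in cycling cluster 12 (PCLAF, ESCO2), at 1.17 ± 0.370, where CCND2 was at its lowest, 0.0712 ± 0.0373. CCND2 and CCND3 peaked in cluster 0, at 1.21 and 0.939.

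**Figure D5:**
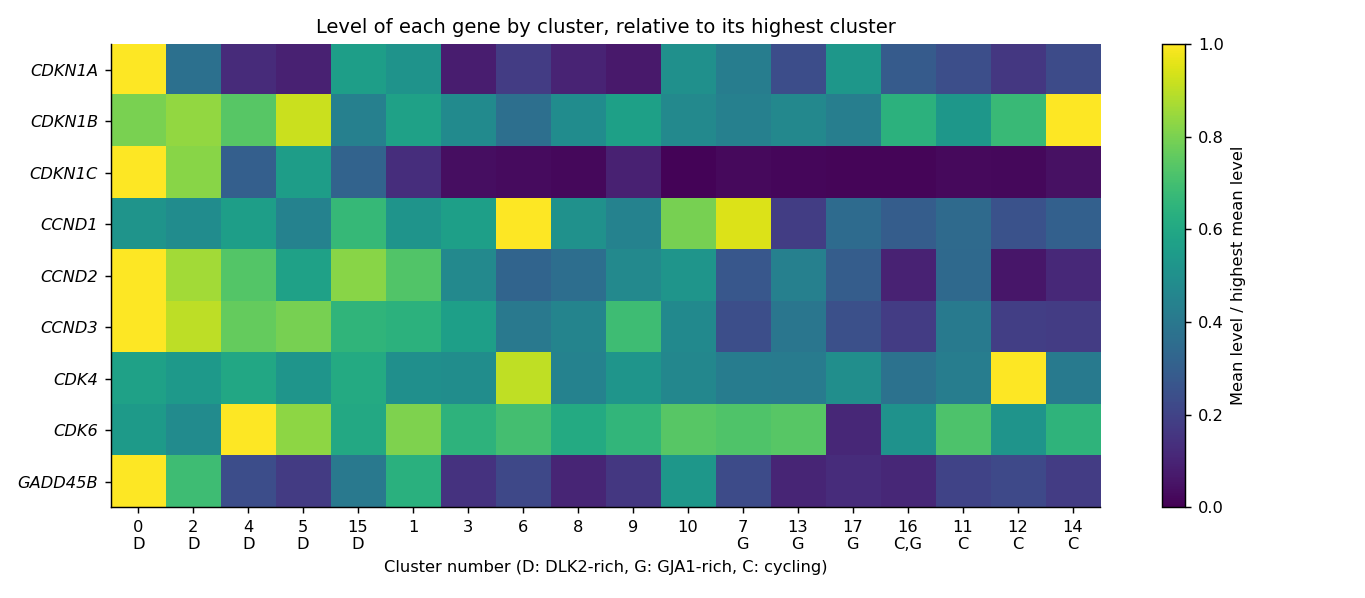
Mean level over 3 cows of each gene (rows) in each of 18 clusters (columns), divided by the level of the gene in its highest cluster, so that 1 is the highest cluster of each row. D marks DLK2-rich, G GJA1-rich and C cycling clusters. CDKN1C is concentrated in D clusters, where cluster 0 has 1.58 UMIs per 10000, and CDKN1A is high in clusters 0 and 15 (D), 17 (G) and 1 and low in clusters 4 and 5 (D).

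Over the 54 sums of a cow and a cluster, with the mean of the cow taken out, each gene was matched with the 2 genes whose log2 level ran most like it. The sums share libraries and the clusters were made from some of these genes, so the Pearson r is a description. For CDKN1C they were SPRY1 (r = 0.91) and DLL1 (0.90), an inhibitor of receptor tyrosine kinase signalling and a ligand of Notch. For CDKN1A they were DUSP1 (0.90), an immediate-early phosphatase, and the repressor PRDM1 (0.87), and for GADD45B the immediate-early factors EGR1 (0.95) and JUNB (0.94). CDK4 ran with DNMT1 (0.89) and HAT1 (0.86), which act on newly made chromatin.

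The other members had neighbours of other kinds. CDKN1B ran with FZD6 (0.85) and SERTAD2 (0.85), CCND2 with NACA (0.87) and HSP90AB1 (0.85), and CCND3 with ENSBTAG00000054678 (0.90) and PON2 (0.87). The closest genes were less alike for CCND1, with EPPK1 (0.69) and GNL3 (0.67), and for CDK6, with GTF3C1 and DNMT3A (both 0.73).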

How the data were processed

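The authors aligned droplet 3′ libraries with Cell Ranger 3.1.0 per the labels and deposited UMI counts per gene and cell as whole numbers after their filters, for 3 cows with 1 library each. The authors also deposited log-normalized values, in natural log of 1 plus UMIs per 10000. They were used for gene names: the named rows matched the counts within 1e-06 in 1966 genes checked, whereas a longer gene list did not follow the matrix. The barcode suffix gave the cow. Positions and sequences are not used here.

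The members, lists and tests were chosen with earlier results of these data known. The named genes are the 10 members, both gating genes, listed genes past the threshold, and for each member the 2 genes with the highest Pearson r. Counts were summed per cow, gate and class (18 sums, at least 10 cells each) and tested in edgeR 4.0.16 (TMM scaling, filterByExpr, glmQLFit, glmQLFTest) in R 4.3.3 with the cow as a term. The term was kept because the sums compared come from the same animals. Deviations of sums of the same cow correlated at 0.502 to 0.557 and those of different cows at -0.300. The common biological coefficient of variation was 0.0755. The SE was derived from the p-value and its degrees of freedom. P-values reach over 3 animals that were sampled once each. The test was checked on counts simulated without cow effects and without the real differences between gates, so the check does not cover these. Clusters were made in Seurat 5.3.0 with 2000 variable genes less 5 members, 30 components, an own version of Harmony for the cow, 20 neighbours and Louvain at 1.6. Cells were thinned with a fixed seed, which left out 1518 cells under 5000 UMIs.

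Alternatives were DESeq2 1.42.0, RLE scaling, no low-count filter, each cow left out, no cow term, a gate of 2 UMIs, thinned cells, other proliferation limits (cycling from 20, or 1 limit at 5), cells of low immediate-early level, a mitochondrial share of 1% to 25%, 30 cells per sum and a clustering resolution of 1.0. The fit on the immediate-early band was added after seeing the data. 1 gene of the stress arrest list, and the counts over that list, are not reported here.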

Additional observations from a re-analysis of the deposited data

Results flagged for a closer look

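The change of GADD45B from cycling to non-cycling cells differed between the gates by the test of the difference itself. It was 1.06 ± 0.28 (SE) larger on the log2 scale in DLK2+ than in GJA1+ cells, with an adjusted p of 0.042 (edgeR, Benjamini-Hochberg adjustment). The non-cycling level was above the cycling level in 3 of 3 cows with DLK2, and with GJA1 in cow 2 (1.01 against 0.644), whereas cows 1 (0.224 against 0.228) and 3 (0.178 against 0.201) had the cycling level slightly higher. The call was lost in 8 of the 14 alternatives, among them the fits without cow 1 (0.82) and without cow 3 (0.80), and it was 0.21 in cells of low immediate-early level.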

How the results depend on the processing

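Of 759 member values under alternatives, 662 kept their direction and side of the threshold, 49 lost and 13 gained a call, and 35 changed sign, none of which were called. The setting of 30 cells per sum left all sums unchanged, since the smallest held 35 cells. Its 54 values are counted among those kept and test nothing. CDKN1C stayed higher in DLK2+ than in GJA1+ non-cycling cells in each fit. The causes of the shifts below were not tested. CDKN2B (56 UMIs) and CDK6 (1024 UMIs) had few counts, and cycling cells were fewer than non-cycling ones. What this did to the results was not tested.

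Without the replicate block for the cow, genes called numbered 1482 (DLK2+ against GJA1+), 550 and 517 (state within DLK2+ and GJA1+), 0 (difference of changes, edgeR, with 390 at an unadjusted p under 0.05), 8 and 656 (DLK2+ and GJA1+ against neither). The calls of CDKN1B, CCND1, CDK4 and GADD45B between gates were then lost. With thinned cells the counts were 3167, 862, 601 and 33 for the first 4 and 2318 for GJA1+ against neither. A gate of 2 UMIs gave 971 (state, DLK2+) and 6 (difference), low immediate-early cells 53 (difference) and DESeq2 255 (DLK2+ against neither). Leaving out a cow gave 4076 to 4488, 1328 to 1867, 1160 to 1499, 10 to 179, 94 to 494 and 3146 to 3405 in the order of the first list.

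Log2 values that changed sign between gates were CDKN1A at 0.20 when thinned and -0.45 to 0.14 by cow left out, and CDK6 at -0.24 to 0.54. For state in DLK2+ cells they were CDKN1B (0.050 at 2 UMIs, 0.21 thinned), CDK4 (0.17, 0.068, and -0.18 to 0.0062 by cow) and CDK6 (-0.064 at 2 UMIs, -0.029 with 1 limit, -0.11 to 0.34 by cow), and in GJA1+ cells CDK4 (0.11 with cycling from 20, 0.18 thinned). For the difference of changes they were CDKN1A (-0.78 at low immediate-early level, -0.0046 with 1 limit), CDKN1B (0.22 at 2 UMIs, 0.041 at low level, 0.75 thinned), CCND2 (-0.16 at low level, -1.06 thinned, -0.013 without block, -0.25 to 0.21 by cow) and CDK4 (-0.16 with cycling from 20, -0.11 thinned, -0.015 in the mitochondrial range, -0.029 to 0.12 by cow). Against neither they were, for DLK2+, CDKN1A (-0.43 at low level, -0.032 without block, -0.17 to 0.14 by cow) and GADD45B (-0.065 at low level), and for GJA1+ CDKN1A (-0.038 to 0.58 by cow), CCND1 (-0.012 unfiltered, -0.18 to 0.16 by cow) and CDK6 (-0.57 to 0.12 by cow).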

Other observations

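Cells with UMIs of both DLK2 and GJA1 entered no comparison. The 379 non-cycling ones had 0.337, 0.210 and 0.223 UMIs per 10000 of CDKN1C in cows 1, 2 and 3, above the GJA1+ and below the DLK2+ level of each cow. CCND1 had 0.312, 0.228 and 0.281 there, below both gates in each cow. CDKN1A had 0.657, 1.38 and 0.199 and CCND2 had 0.758, 0.520 and 0.915. These cells held 158 UMIs of CDKN1C in all, and doublets left after the filter of the authors would also carry both genes, which was not tested.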
